A study of Mus musculus with 20 samples.

Results

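The 38 genes described here comprise 22 glycolytic enzymes and transporters and 16 genes of the hypoxia response, out of 36528 gene models with counts in the deposited tables. They were taken from a list of symbols, matched to the tables' Entrez numbers through the RefSeq annotation of GRCm38.p6. The matching used no measured value, but the list was chosen with earlier results of these data known. All 38 passed the filter on low counts, as did 15390 gene models in all. The glycolytic members run from glucose uptake (Slc2a1) through the hexokinases (Hk1, Hk2, Hk3), Gpi1, the phosphofructokinases (Pfkl, Pfkm, Pfkp) and their bifunctional activators (Pfkfb3, Pfkfb4), the aldolases (Aldoa, Aldoc), Tpi1, Gapdh, Pgk1, Pgam1, the enolases (Eno1, Eno2), Pkm and Ldha to the monocarboxylate carriers Slc16a1 and Slc16a3. The hypoxia members are Hif1a, its hydroxylases Egln1 and Egln3, and the target genes Pdk1, Bnip3, Bnip3l, Car9, Ndrg1, Ankrd37, Kdm3a, Mif, P4ha1, P4ha2, Adm, Ddit4 and Higd1a.

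Bulk RNA-seq had been made from tumours of MC38, a mouse colon carcinoma line, from which cells were sorted as macrophages or as monocytes. The titles name 4 groups of 5 libraries each: control macrophages, anti-PD-L1 macrophages, control monocytes and anti-PD-L1 monocytes, the antibody binding PD-L1, a ligand that restrains T cells through PD-1. Samples were taken on day 7 of treatment. The sources used here do not give mouse strain or age, what the control mice received, the antibody's dose or the sort gates. They also do not say whether each library came from a separate animal, so the p-values rest on a spread between libraries that may be technical. Every control library carries a lower sample number than every treated library, and treatment cannot be told apart from anything else that followed that order.

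Glycolysis splits glucose into pyruvate in the cytosol with a small yield of ATP, and lactate dehydrogenase turns pyruvate into lactate, which monocarboxylate carriers take out of the cell. When oxygen is scarce, the prolyl hydroxylases encoded by the Egln genes no longer mark the transcription factor subunit HIF-1alpha for destruction, so it pairs with ARNT, binds short DNA elements with the core ACGTG or GCGTG and raises transcription of glycolytic genes and of genes for pH control, mitophagy, collagen hydroxylation and feedback on the pathway itself. In myeloid cells inflammatory signals also raise Hif1a transcription, and activated macrophages are known for strong glycolysis.

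HIF-1 can act at promoters, and only promoter windows were searched for its cores. The sequence just before the start site is shown for members chosen by their higher level in monocytes. These are the 5 genes that were at least 2-fold higher in monocytes in both treatment groups and have an entry in the RefSeq promoter table (GRCm38.p6). Ndrg1 meets the same rule and is named only. Ldha is added because, of its 2 promoters in the table, the promoter shown held the most cores of all members. These lay in 5 separate places, where no other member had more than 4. Each line gives the 250 bases before the start, 5′ to 3′ on the gene's strand, and capitals mark every ACGTG or GCGTG on either strand, where adjoining or overlapping matches run together.
Slc16a3: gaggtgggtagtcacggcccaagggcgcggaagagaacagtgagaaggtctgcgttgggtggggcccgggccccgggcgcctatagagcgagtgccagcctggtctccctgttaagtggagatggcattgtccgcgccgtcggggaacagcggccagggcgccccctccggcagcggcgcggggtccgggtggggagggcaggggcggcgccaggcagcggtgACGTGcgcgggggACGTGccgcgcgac
Hif1a: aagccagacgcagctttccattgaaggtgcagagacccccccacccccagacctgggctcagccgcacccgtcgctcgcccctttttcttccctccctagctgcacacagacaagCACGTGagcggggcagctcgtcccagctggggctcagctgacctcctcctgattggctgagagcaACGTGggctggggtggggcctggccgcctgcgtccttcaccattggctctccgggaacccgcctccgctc
Egln3: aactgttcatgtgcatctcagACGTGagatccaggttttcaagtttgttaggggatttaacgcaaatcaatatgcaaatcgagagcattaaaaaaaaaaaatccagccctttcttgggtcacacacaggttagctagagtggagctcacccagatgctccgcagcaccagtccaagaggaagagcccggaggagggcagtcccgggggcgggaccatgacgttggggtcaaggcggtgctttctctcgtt
Ankrd37: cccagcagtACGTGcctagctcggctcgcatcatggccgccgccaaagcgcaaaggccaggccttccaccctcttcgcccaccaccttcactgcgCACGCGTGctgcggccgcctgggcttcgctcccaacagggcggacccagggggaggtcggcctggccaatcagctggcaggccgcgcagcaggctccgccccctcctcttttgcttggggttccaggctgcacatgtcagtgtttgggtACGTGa
Ddit4: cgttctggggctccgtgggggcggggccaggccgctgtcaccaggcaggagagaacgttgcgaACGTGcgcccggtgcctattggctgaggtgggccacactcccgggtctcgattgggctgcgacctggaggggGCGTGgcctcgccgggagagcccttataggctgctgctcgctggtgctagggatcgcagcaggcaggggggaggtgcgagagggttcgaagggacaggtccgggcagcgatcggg
Ldha: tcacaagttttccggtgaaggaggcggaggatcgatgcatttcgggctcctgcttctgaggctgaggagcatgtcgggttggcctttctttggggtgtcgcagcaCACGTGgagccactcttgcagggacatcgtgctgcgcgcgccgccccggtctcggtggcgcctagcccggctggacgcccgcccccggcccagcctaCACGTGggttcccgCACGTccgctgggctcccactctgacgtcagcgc
The stretches lie at chr11:120948817-120949066 (plus strand), chr12:73907617-73907866 (plus), chr12:54203875-54204124 (minus), chr8:45999851-46000100 (minus), chr10:59951771-59952020 (minus) and chr7:46845554-46845803 (plus). The stretches of Slc16a3, Hif1a, Ankrd37 and Ldha lie within the gene spans given below, so their starts are not the outermost annotated ones. Slc16a3 held 2 ACGTG cores, at 27 and 14 bases before the start. Hif1a held 3, of which those at 135 and 134 bases are the opposite strands of one palindrome. Egln3 held 1 core, 229 bases before the start, Ddit4 held 2 and Ankrd37 held 4. Ldha held 5 before the start and 7 within the full window of 250 bases before to 50 bases after it, counting both strands of the palindromes at 145 and 48 bases before the start. In that full window, 41 of 51 member promoters (80.4%) held at least 1 core on either strand, against 43.8% of all 32851 promoters in the table. The member promoters also had a higher GC content (median 62.3% against 52.7%), and both cores are rich in G and C. Of the 36 members with an entry, 33 had a core in at least 1 promoter, and the windows of Eno2, Gpi1 and Tpi1 had none. Members called higher in macrophages held cores too. Counted as separate places in the full window, P4ha2 had up to 4, Aldoc 3, Pfkm, Pdk1 and Adm 2 each and Car9 1. By the same count Ankrd37 had 3, Slc16a3, Hif1a and Ddit4 2 each and Egln3 1. A match is a string of letters and shows no binding.

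Depth was even across the 20 libraries, from 30191509 to 36514133 counts. Levels below are CPM, the count scaled to library size with TMM factors, and 1 read was worth about 0.03 CPM. Log2 fold changes with their standard errors and p-values adjusted by Benjamini-Hochberg over 15390 genes come from edgeR's quasi-likelihood test on all 20 libraries, and a gene was called at an adjusted p below 0.05. The sorted cells carried the markers of their names: 9 of 12 macrophage markers were higher in control macrophages than in control monocytes (C1qa 3043 to 4751 against 428 to 817 CPM) and 9 of 11 monocyte markers were higher in control monocytes (Ly6c2 506 to 1276 against 3.06 to 8.96 CPM). Ccr2, a monocyte marker, was also present in control macrophages at 165 to 293 CPM. Of the epithelial markers that would mark the tumour cells, Epcam was at 0.117 to 0.384 CPM and Krt8 at 0.0108 to 0.0869 CPM as group means. Other epithelial markers were higher. The summed level of the 12 listed ran over 29.7 to 60.2 CPM in control macrophages and 60.5 to 115 CPM in treated macrophages. In monocytes it ran over 60.2 to 104 CPM in the control libraries and 74.6 to 122 CPM in the treated libraries. Fibroblast markers varied between libraries. Their summed level ran over 129 to 2939 CPM in control macrophages, 72.8 to 496 CPM in treated macrophages, 444 to 4585 CPM in control monocytes and 90.3 to 742 CPM in treated monocytes. In bulk samples such as these, fewer cells of a type and less RNA per cell cannot be told apart.

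Per transcript length, the pathway was carried by few isoforms. Levels between genes are compared here with the deposited nRPKM values, given as mean ± SD over the 5 control libraries. These values rest on uniquely aligned reads. Near-identical copies cover 0% of Aldoa but 55.04% of Ldha, 65.5% of Pkm, 85.6% of Eno1 and 93.4% of Mif. The order below is therefore one of counted reads, and the true order is uncertain. Aldoa, the main aldolase outside liver and brain, stood highest of the 38 genes, at 642 ± 62.7 nRPKM in macrophages and 724 ± 105 in monocytes. Tpi1, which interconverts the triose phosphates, Ldha, which makes lactate, and Pkm, the pyruvate kinase, followed at 427 ± 78.98, 391 ± 65.5 and 321 ± 36.2 in macrophages. The intervals of 1 SD around the means of these 3 genes overlapped between neighbours in that order. In monocytes the same genes stood at 508 ± 109, 451 ± 70.2 and 461 ± 90.6, also within overlapping spreads. Next came Slc16a3, the lactate exporter, at 129 ± 17.98 in macrophages and 282 ± 38.3 in monocytes. Slc2a1, the glucose transporter GLUT1, stood at 119 ± 15.7 and 237 ± 53.7, and Eno1 at 119.8 ± 18.4 and 176 ± 31.8. Slc16a3, Eno1 and Slc2a1 did not differ beyond their spread in macrophages. Of the hypoxia genes Mif stood highest in control macrophages, at 76.2 ± 10.98, and Hif1a in control monocytes, at 103 ± 25.6, within the spread of Mif at 88.2 ± 20.5.

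Hk3, a hexokinase typical of myeloid cells, made up 59.96% ± 5.47 (SD, n = 5) of the nRPKM of the 3 hexokinases in control macrophages and 57.3% ± 5.396 in control monocytes, ahead of Hk2 with 21.2% ± 3.205 and 24.1% ± 1.96. Pfkl supplied 69.9% ± 2.197 of phosphofructokinase in macrophages and 65.02% ± 1.17 in monocytes. The platelet-type Pfkp held 21.1% ± 2.77 and 30.1% ± 3.46, and the muscle-type Pfkm 9.05% ± 1.73 and 4.93% ± 2.45. Aldoa accounted for 95.8% ± 0.366 of the aldolase pair, Eno1 for 99.9% ± 0.0277 of the enolases, Pfkfb3 for 73.4% ± 4.14 of the PFKFB pair and Slc16a3 for 93.997% ± 1.05 of the carrier pair in control macrophages. Among the oxygen-sensing hydroxylases the order differed between the populations. Egln1 held 58.05% ± 6.204 of the Egln1 and Egln3 sum in control macrophages and 41.2% ± 5.31 in control monocytes.

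Some enzymes were counted far below their partners in the same chain of reactions. Gapdh, the glyceraldehyde phosphate dehydrogenase, stood at 2.805 ± 0.739 nRPKM in control macrophages, Pgam1, the phosphoglycerate mutase, at 1.33 ± 0.321, and Pgk1, the phosphoglycerate kinase, at 21.8 ± 1.202. The counts are of uniquely aligned reads, and GENCODE M21 holds near-identical copies of these transcripts (at least 95% identity over at least 100 bases) in 81 other genes for Gapdh, 77 of them pseudogenes, covering 87.96% of its transcript. Copies covered 68.8% of Pgk1 and 43.1% of Pgam1. The same holds for 94.2% of Bnip3, 93.4% of Mif, 85.6% of Eno1, 65.5% of Pkm, 55.3% of Gpi1, 55.04% of Ldha, 43.5% of Higd1a and 34.7% of Bnip3l, so the absolute levels of these genes are uncertain. Comparisons of one such gene between groups use the same positions in every library. Opposite-strand genes overlap 26.4% of the exonic bases of Ankrd37, 22.5% of Higd1a and 22.3% of Bnip3, and the sources used here do not give the strand setting of the counting. Same-strand genes overlap 15.3% of the exonic bases of Pkm, 10.2% of Pfkm and 2.51% of Hif1a.

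**Figure D1:**
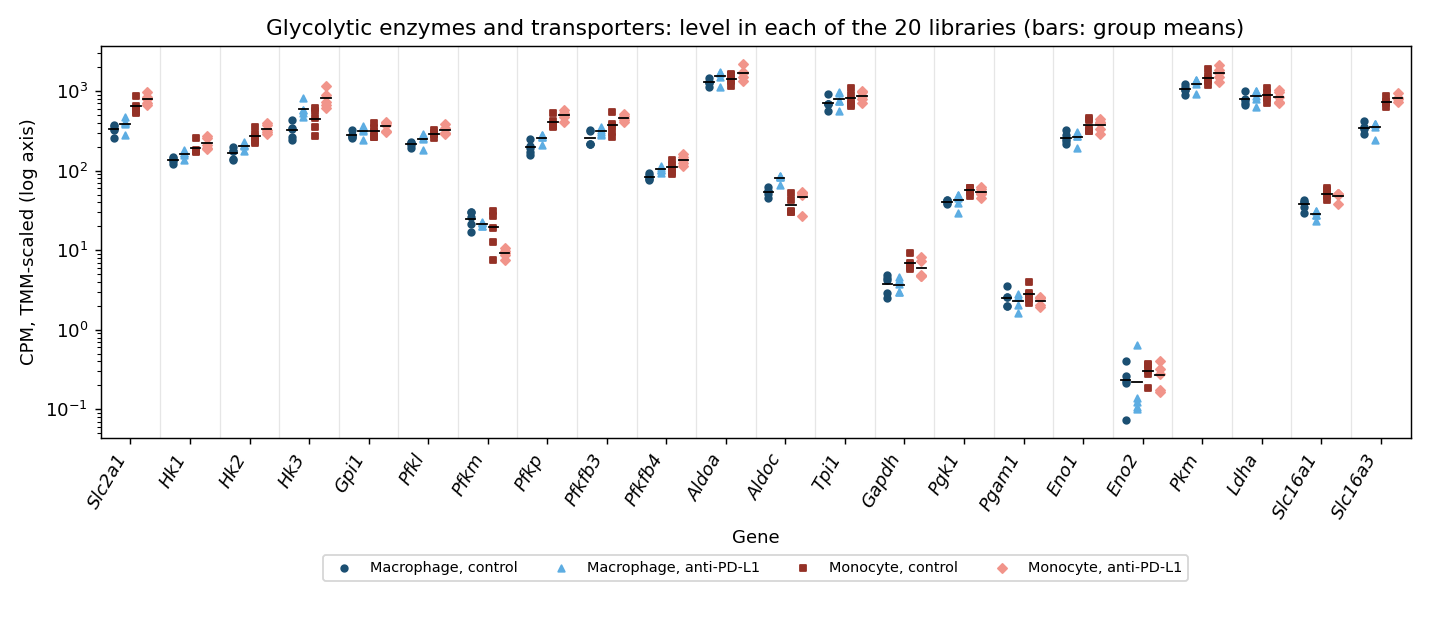
CPM after TMM scaling (log axis) of the 22 glycolytic genes in each of the 20 libraries, with a bar at each group mean. Slc16a3, Pfkp, Slc2a1 and Hk2 sit higher in every monocyte library than in every macrophage library of the same treatment, whereas the 4 groups of Ldha, Tpi1 and Aldoa overlap.

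The first comparison asks how the sorted populations differ within a tumour group. Most glycolytic genes were higher in monocytes, among them the glucose transporter Slc2a1, the hexokinases Hk1 and Hk2 and the lactate carriers Slc16a1 and Slc16a3, while Hk3, Gpi1, Aldoa, Tpi1, Pgam1, Eno2 and Ldha were called in neither treatment group. In control tumours 13 of the 22 glycolytic genes were higher in monocytes and 1, Aldoc, was higher in macrophages. Over all genes tested 20% were called higher in control monocytes and 24% higher in control macrophages. After anti-PD-L1 the same 13 genes were higher in monocytes and 2, Aldoc and Pfkm, were higher in macrophages, against 25.7% and 28.2% of all genes. The median log2 fold change of macrophages over monocytes across the 22 genes was -0.45 in control and -0.41 in treated tumours, beside medians of -0.00 and -0.01 over all genes tested. Over all 38 members, 15 had monocyte libraries entirely above the macrophage libraries in control tumours and 15 in treated tumours, as did 10.8% and 22% of all genes tested, and 0 and 4 had them entirely below, as did 14.3% and 25% of all genes. Both comparisons are given in the plot of macrophages against monocytes.

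Slc16a3 (Entrez 80879, chromosome 11, 120948484 to 120959000) encodes MCT4, the carrier that exports lactate from cells with a high glycolytic rate. In macrophages, Slc16a3 was at 422, 286, 331, 356 and 339.8 CPM in the control libraries and at 243, 382, 349, 390.1 and 383 CPM in the treated libraries. In monocytes, Slc16a3 was at 723, 714, 623, 730.1 and 875 CPM in the control libraries and at 822, 944, 794, 719 and 822 CPM in the treated libraries. Every monocyte library lay above every macrophage library, and the treated macrophage library 1 was the lowest of the 20. The difference amounted to 2.11-fold in control tumours (log2 fold change -1.08, SE 0.13, adjusted p = 2.0e-06) and 2.35-fold after anti-PD-L1 (log2 fold change -1.23, SE 0.13, adjusted p = 2.8e-07). Slc16a1 (Entrez 20501, chromosome 3, 104638664 to 104658462), which encodes the more widely expressed carrier MCT1, differed in the same direction. In macrophages, Slc16a1 was at 39.95, 35.4, 40.4, 29.2 and 43.3 CPM in the control libraries and at 23.3, 28.04, 30.7, 27.7 and 31.4 CPM in the treated libraries. In monocytes, Slc16a1 was at 56.3, 48.8, 60.1, 47.3 and 43.1 CPM in the control libraries and at 51.04, 51.2, 50.1, 37.6 and 49.4 CPM in the treated libraries. The control groups overlapped by 1 library each, at 43.3 CPM in macrophages and 43.1 CPM in monocytes, and the treated groups did not overlap. Slc16a1 was higher in control monocytes (log2 fold change -0.44, SE 0.12, adjusted p = 0.00498) and in treated monocytes (log2 fold change -0.76, SE 0.12, adjusted p = 2.5e-05).

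Slc2a1 (Entrez 20525, chromosome 4, 119108745 to 119137330) encodes GLUT1, which brings glucose into the cell. In macrophages, Slc2a1 was at 336, 259.7, 362, 375 and 328 CPM in the control libraries and at 278, 401, 390.4, 404 and 472 CPM in the treated libraries. In monocytes, Slc2a1 was at 642, 600.0, 551, 537 and 869.6 CPM in the control libraries and at 844, 975, 658, 706 and 798 CPM in the treated libraries. All 10 monocyte libraries were above all 10 macrophage libraries, with control monocyte library 5 the highest of its group. Slc2a1 was 1.93-fold higher in control monocytes (log2 fold change -0.95, SE 0.15, adjusted p = 5.6e-05) and 2.05-fold higher in treated monocytes (log2 fold change -1.03, SE 0.15, adjusted p = 1.4e-05). Hk2 (Entrez 15277, chromosome 6, 82725025 to 82774454) encodes the inducible hexokinase that binds mitochondria and traps glucose as glucose 6-phosphate. In macrophages, Hk2 was at 140.5, 137, 176, 196 and 177 CPM in the control libraries and at 178, 201, 210.4, 212 and 232 CPM in the treated libraries. In monocytes, Hk2 was at 288, 261, 235, 219 and 348 CPM in the control libraries and at 371, 394, 291, 320.4 and 307 CPM in the treated libraries. The populations did not overlap within either treatment group. Hk2 was 1.64-fold higher in control monocytes (log2 fold change -0.71, SE 0.13, adjusted p = 1.9e-04) and 1.63-fold higher in treated ones (log2 fold change -0.70, SE 0.13, adjusted p = 1.4e-04). Hk1, the housekeeping hexokinase, was higher in monocytes by a smaller step (1.403-fold, adjusted p = 0.003105, and 1.38-fold, adjusted p = 0.003601).

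Pfkp (Entrez 56421, chromosome 13, 6579874 to 6649060) encodes a phosphofructokinase, the enzyme of the committed step. In macrophages, Pfkp was at 172, 156, 247, 207 and 194 CPM in the control libraries and at 208, 267, 278, 283 and 262 CPM in the treated libraries. In monocytes, Pfkp was at 425, 360.0, 359, 354 and 537 CPM in the control libraries and at 535, 584, 467, 413 and 498 CPM in the treated libraries. The lowest monocyte library, at 354 CPM, stood above the highest macrophage library, at 283 CPM. Pfkp was 2.09-fold higher in control monocytes (log2 fold change -1.06, SE 0.14, adjusted p = 5.1e-06) and 1.92-fold higher in treated monocytes (log2 fold change -0.94, SE 0.14, adjusted p = 1.3e-05). Pfkl, the liver-type form, followed with 1.36-fold (adjusted p = 0.00354) and 1.28-fold (adjusted p = 0.0124). Pfkfb3 and Pfkfb4 make and degrade fructose 2,6-bisphosphate, the strongest activator of phosphofructokinase. Pfkfb3 was 1.44-fold (adjusted p = 0.0138) and 1.48-fold (adjusted p = 0.00671) higher in monocytes, and Pfkfb4 1.31-fold (adjusted p = 0.00625) and 1.31-fold (adjusted p = 0.00513). The Pfkl call in treated tumours was lost without treated monocyte library 2 (adjusted p = 0.07002), and the Pfkfb3 call in control tumours without control monocyte library 5 (0.0656).

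Pfkm, the muscle-type phosphofructokinase, went the other way. It was 2.33-fold higher in treated macrophages than in treated monocytes (adjusted p = 6.4e-04), whereas in control tumours its log2 fold change of 0.35 was not called (adjusted p = 0.291). Aldoc, the brain-type aldolase, was higher in macrophages in control tumours (53.7 ± 5.81 against 37.1 ± 9.78 CPM, adjusted p = 0.0185) and in treated tumours (80.5 ± 8.74 against 47.02 ± 11.5 CPM, adjusted p = 9.5e-04). The Aldoc call in control tumours was lost without control monocyte library 2 (adjusted p = 0.0534).

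Of the later steps, Gapdh, Pgk1, Eno1 and Pkm were called. Gapdh (Entrez 14433, chromosome 6, 125161852 to 125166467) was low in every library and its level is uncertain, as stated. In macrophages, Gapdh was at 4.49, 2.51, 4.86, 4.27 and 2.94 CPM in the control libraries and at 4.54, 4.19, 2.98, 3.75 and 2.96 CPM in the treated libraries. In monocytes, Gapdh was at 6.59, 6.86, 5.78, 6.19 and 9.22 CPM in the control libraries and at 4.79, 4.78, 8.18, 7.24 and 4.86 CPM in the treated libraries. Within each treatment group every monocyte library was above every macrophage library. Gapdh was 1.81-fold higher in control monocytes (log2 fold change -0.86, SE 0.21, adjusted p = 0.002704) and 1.62-fold higher in treated ones (log2 fold change -0.70, SE 0.21, adjusted p = 0.00943). Pgk1, which makes the first ATP of the payoff phase, was 1.38-fold and 1.27-fold higher in monocytes (adjusted p = 0.00359 and 0.0209). Eno1, the main enolase, was 1.43-fold and 1.402-fold higher (adjusted p = 0.00868 and 0.00949). Pkm was 1.39-fold and 1.36-fold higher (adjusted p = 0.0124 and 0.0165). In treated tumours the Pgk1 call was lost without treated macrophage library 1 or 3 or treated monocyte library 2 or 5 (highest adjusted p = 0.09101), and the Pkm call without treated macrophage library 1 or treated monocyte library 2 (0.0756).

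Ldha (Entrez 16828, chromosome 7, 46842274 to 46855627), which encodes the lactate dehydrogenase subunit favoured in glycolytic cells, did not differ detectably. In macrophages, Ldha was at 997, 771, 699, 799 and 658 CPM in the control libraries and at 622, 993, 788, 857 and 1013 CPM in the treated libraries. In monocytes, Ldha was at 840.5, 817, 709, 1078 and 951 CPM in the control libraries and at 839.9, 963, 732, 713 and 1014 CPM in the treated libraries. All 4 groups overlapped, and the spread within a group exceeded the distance between the means. The log2 fold change of macrophages over monocytes was -0.16 (SE 0.15, adjusted p = 0.416) in control and 0.00 (SE 0.15, adjusted p = 0.986) in treated tumours. A further 6 glycolytic genes were called in neither comparison: Hk3, Gpi1, the phosphoglucose isomerase, Aldoa, Tpi1, Pgam1 and Eno2, the neuronal enolase. Eno2 was measured at 0.0729 to 0.644 CPM in macrophages, with 3 to 22 counts per library.

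**Figure D2:**
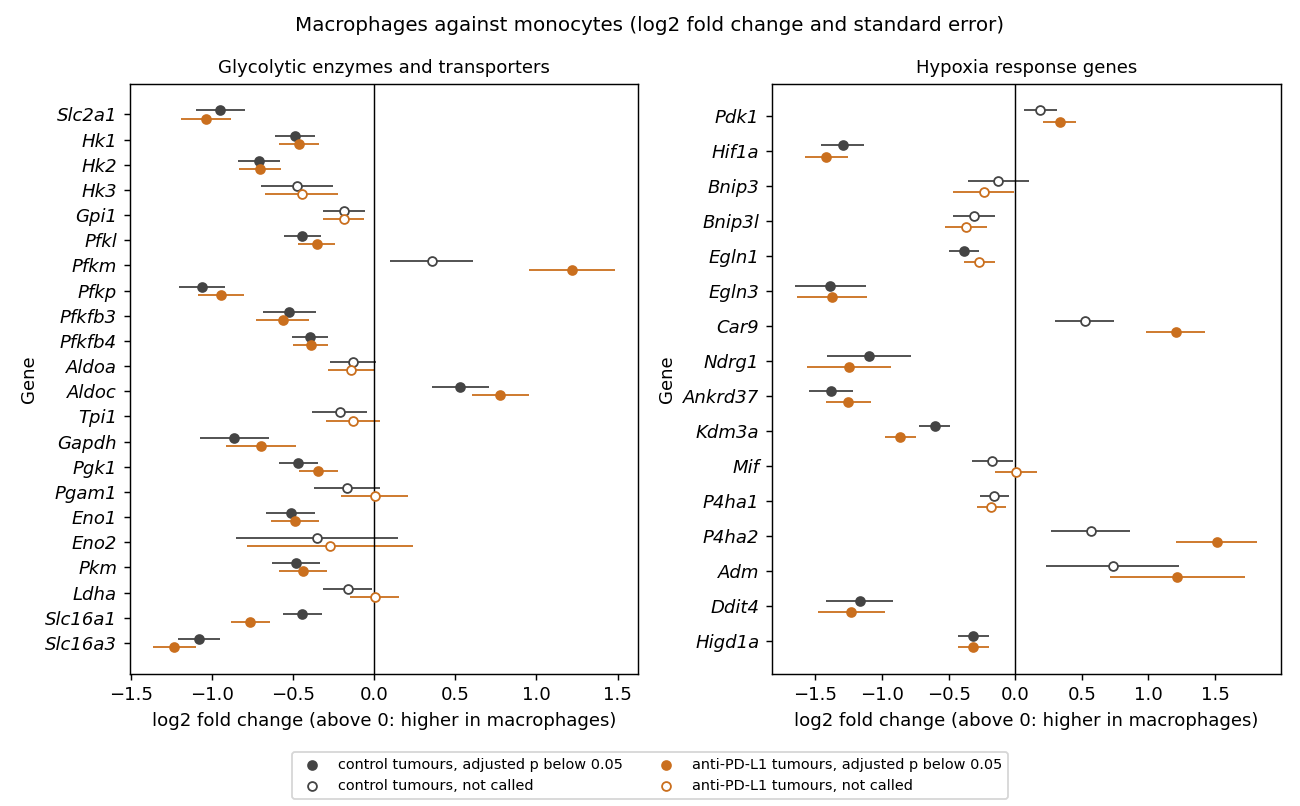
Log2 fold change of macrophages over monocytes with its standard error for the 22 glycolytic genes (left) and the 16 hypoxia genes (right), in control tumours (grey) and anti-PD-L1 tumours (orange), filled where the adjusted p is below 0.05. Most filled points lie left of 0, that is higher in monocytes, and Aldoc, Pfkm, Car9, P4ha2, Adm and Pdk1 lie to the right.

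Hypoxia genes called in control tumours were all higher in monocytes, and those called in treated tumours went in both directions. Hif1a itself, the hydroxylase Egln3 and the targets Ndrg1, Ankrd37, Kdm3a, Ddit4 and Higd1a were higher in monocytes in both treatment groups, 7 of 16, and Egln1 was added in control tumours. None of the 16 was called higher in macrophages in control tumours, while Pdk1, Car9, P4ha2 and Adm were after anti-PD-L1. The counts were thus 8 higher in monocytes and 0 higher in macrophages in control tumours, and 7 and 4 in treated tumours, with the percentages of all genes as above (20% and 24%, then 25.7% and 28.2%). In control tumours Pdk1, Car9, P4ha2 and Adm had positive log2 fold changes of 0.19, 0.52, 0.57 and 0.73 without being called by edgeR. Of these Car9 had an unadjusted p below 0.05, limma-voom called Car9 (adjusted p = 0.0251) and DESeq2 called none. The medians across the 16 genes were -0.31 and -0.29.

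Hif1a (Entrez 15251, chromosome 12, 73901324 to 73947554) encodes the oxygen-regulated subunit of HIF-1. In macrophages, Hif1a was at 218, 179, 219.7, 198 and 194 CPM in the control libraries and at 264, 263, 250.2, 376 and 227 CPM in the treated libraries. In monocytes, Hif1a was at 439, 586, 416, 384 and 647 CPM in the control libraries and at 765, 941, 706, 701 and 575 CPM in the treated libraries. The lowest monocyte library, a control at 384 CPM, stood above the highest macrophage library, a treated one at 376 CPM. Hif1a was 2.45-fold higher in control monocytes (log2 fold change -1.29, SE 0.16, adjusted p = 2.7e-06) and 2.67-fold higher in treated monocytes (log2 fold change -1.42, SE 0.16, adjusted p = 6.0e-07). These are mRNA values, and HIF-1alpha is controlled mainly as a protein.

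Egln3 (Entrez 112407, chromosome 12, 54178981 to 54203874) encodes PHD3, a hydroxylase that is itself a HIF target and acts as feedback. In macrophages, Egln3 was at 81.1, 37.9, 51.3, 61.5 and 63.5 CPM in the control libraries and at 26.9, 63.1, 56.95, 46.5 and 76.9 CPM in the treated libraries. In monocytes, Egln3 was at 124, 105, 133, 227 and 184 CPM in the control libraries and at 145, 173, 117, 94.2 and 171 CPM in the treated libraries. The populations did not overlap, although the libraries of one group differed by up to about 3-fold. Egln3 was 2.62-fold higher in control monocytes (log2 fold change -1.39, SE 0.27, adjusted p = 2.9e-04) and 2.59-fold higher in treated ones (log2 fold change -1.38, SE 0.27, adjusted p = 2.2e-04). Egln1, which encodes PHD2, the main oxygen sensor, differed less, at 1.31-fold (adjusted p = 0.0106) in control tumours and, not called, 1.204-fold (adjusted p = 0.0566) in treated tumours. 

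Ankrd37 (Entrez 654824, chromosome 8, 45996908 to 46000414) encodes an ankyrin repeat protein known as a HIF-1 target. In macrophages, Ankrd37 was at 25.3, 17.4, 17.2, 18.96 and 15.96 CPM in the control libraries and at 14.1, 21.97, 18.5, 15.6 and 24.3 CPM in the treated libraries. In monocytes, Ankrd37 was at 44.4, 48.03, 35.1, 55.5 and 64.7 CPM in the control libraries and at 39.1, 46.4, 43.2, 45.9 and 50.8 CPM in the treated libraries. Every monocyte library was above every macrophage library. Ankrd37 was 2.61-fold higher in control monocytes (log2 fold change -1.38, SE 0.17, adjusted p = 2.0e-06) and 2.38-fold higher in treated ones (log2 fold change -1.25, SE 0.17, adjusted p = 4.1e-06). Kdm3a (Entrez 104263, chromosome 6, 71588970 to 71632990) encodes a histone H3 lysine 9 demethylase induced by HIF-1. In macrophages, Kdm3a was at 106, 60.3, 79.2, 83.8 and 81.7 CPM in the control libraries and at 70.01, 81.98, 76.3, 68.5 and 83.997 CPM in the treated libraries. In monocytes, Kdm3a was at 113, 114, 122, 130.2 and 145 CPM in the control libraries and at 134, 151, 149, 125 and 132 CPM in the treated libraries. Control macrophage library 1, at 106 CPM, came closest to the monocytes, whose lowest library was at 113 CPM. Kdm3a was 1.52-fold higher in control monocytes (log2 fold change -0.61, SE 0.11, adjusted p = 2.5e-04) and 1.82-fold higher in treated ones (log2 fold change -0.86, SE 0.11, adjusted p = 3.7e-06).

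Ddit4 (Entrez 74747, chromosome 10, 59949675 to 59951770) encodes REDD1, a stress-induced inhibitor of mTORC1. In macrophages, Ddit4 was at 95.7, 44.3, 49.9, 74.3 and 56.9 CPM in the control libraries and at 36.2, 58.5, 31.2, 37.9 and 57.2 CPM in the treated libraries. In monocytes, Ddit4 was at 110.4, 124, 102, 173 and 211 CPM in the control libraries and at 70.3, 93.3, 146, 108 and 101 CPM in the treated libraries. The groups did not overlap within a treatment, with control monocyte libraries 4 and 5 well above the other 3. Ddit4 was 2.24-fold higher in control monocytes (log2 fold change -1.17, SE 0.25, adjusted p = 8.7e-04) and 2.35-fold higher in treated ones (log2 fold change -1.23, SE 0.25, adjusted p = 3.9e-04). Ndrg1, a stress-responsive gene often used as a hypoxia marker, was 2.14-fold and 2.37-fold higher in monocytes (adjusted p = 0.00769 and 0.00236). Its control macrophage libraries spread from 53.7 to 176 CPM and its control monocyte libraries from 139 to 333 CPM, so these groups overlapped. Higd1a, which encodes a small mitochondrial protein of the respiratory chain, differed by 1.24-fold (adjusted p = 0.0353) and 1.24-fold (adjusted p = 0.0306). In control tumours the Higd1a call was lost without control monocyte library 4 (adjusted p = 0.0627), and in treated tumours without treated macrophage library 1, 4 or 5 or treated monocyte library 1, 2, 3 or 5 (highest adjusted p = 0.104).

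Car9 (Entrez 230099, chromosome 4, 43507026 to 43513729) encodes carbonic anhydrase 9, a surface enzyme of pH control. In macrophages, Car9 was at 16.7, 11.997, 14.1, 12.1 and 12.4 CPM in the control libraries and at 11.9, 13.5, 11.7, 12.2 and 12.7 CPM in the treated libraries. In monocytes, Car9 was at 12.3, 5.702, 11.6, 12.5 and 4.81 CPM in the control libraries and at 5.28, 4.53, 7.21, 5.32 and 4.52 CPM in the treated libraries. The macrophage libraries lay between 11.7 and 16.7 CPM. Control monocyte libraries 1, 3 and 4 were at that level, and control libraries 2 and 5 were at the level of the treated monocytes. Car9 was 2.31-fold higher in treated macrophages than in treated monocytes (log2 fold change 1.20, SE 0.22, adjusted p = 1.5e-04) and was not called in control tumours (log2 fold change 0.52, SE 0.22, adjusted p = 0.0601). P4ha2, the alpha subunit 2 of the collagen prolyl 4-hydroxylase, was 2.85-fold higher in treated macrophages (adjusted p = 3.4e-04). Pdk1, the kinase that shuts pyruvate dehydrogenase, was 1.26-fold higher (adjusted p = 0.0269). Adm, which encodes the vasodilator adrenomedullin, was 2.33-fold higher (adjusted p = 0.0486), a call that was lost under limma-voom with the block (adjusted p = 0.0628) and without it (0.233). It was also lost in 9 of 20 fits that left out 1 library: control macrophage library 5, treated macrophage libraries 2 and 5, control monocyte libraries 1 and 3, or treated monocyte libraries 1, 2, 3 and 4. Bnip3 and Bnip3l, mitophagy receptors, Mif, a cytokine, and P4ha1, the main collagen hydroxylase subunit, were called in neither comparison.

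**Figure D3:**
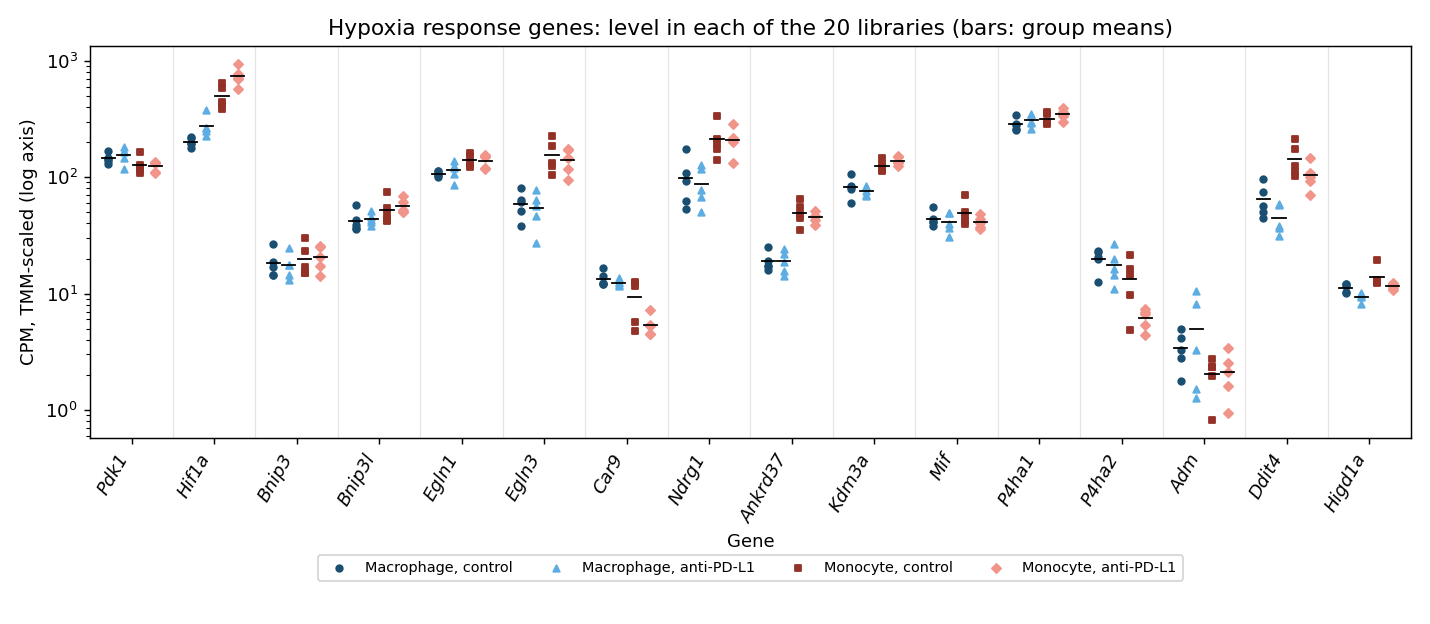
CPM after TMM scaling (log axis) of the 16 hypoxia genes in each of the 20 libraries, with a bar at each group mean. Hif1a, Egln3, Ankrd37, Kdm3a and Ddit4 lie higher in the monocyte libraries, while Car9 and P4ha2 split the control monocyte libraries and are low in all 5 treated monocyte libraries.

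Macrophage and monocyte libraries with neighbouring sample numbers deviated together, and limma-voom with those pairs as a block added calls. In control tumours it added Hk3 (adjusted p = 0.006199) and Bnip3l (0.0112) as higher in monocytes. It added Pfkm (0.0169), Pdk1 (0.0407), Car9 (0.00152) and P4ha2 (0.00988) as higher in macrophages. In treated tumours it added Hk3 (0.00889), Gpi1 (0.04999), Bnip3l (0.00225), Egln1 (0.00534) and P4ha1 (0.0304), all higher in monocytes.

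Other cell markers differed between the populations too. Of 8 neutrophil markers tested, 7 were higher in control monocytes and 8 in treated monocytes, their summed level being 219 to 504 CPM in control monocytes and 67.8 to 125 CPM in control macrophages. Of the defining genes, S100a8 was at 8.46 to 75.6 CPM and Ly6g at 0.15002 to 0.611 CPM in control monocytes. All 21 cell cycle genes were higher in macrophages in both comparisons (Mki67 201 to 300.1 against 13.97 to 64.5 CPM in control tumours). Of 20 fibroblast markers, 2 were higher in treated monocytes than in treated macrophages, and in control tumours their median log2 fold change of -0.55 came with no call. Of 9 dendritic cell markers, 4 were higher in control monocytes and 6 in treated monocytes, and 2 were higher in macrophages in each, with a summed level of 46.2 to 53.3 CPM in control monocytes and 25.5 to 75.5 CPM in control macrophages. In treated tumours 3 of 8 endothelial, 2 of 5 erythroid and 2 of 4 epithelial markers were higher in monocytes, and 1 endothelial, 1 epithelial and both B cell markers tested were higher in macrophages. The part of these markers in the glycolytic and hypoxia differences was not tested. When the fibroblast level entered the fit as a covariate, which was added after the data had been seen, 21 members were higher in monocytes in control tumours and 21 in treated tumours. These included Hk3 in both and Egln1 in treated tumours as new calls, while Higd1a was lost in both. That fit also called Pfkm (adjusted p = 0.0196), Car9 (0.00619) and P4ha2 (0.0207) higher in macrophages in control tumours.

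Treatment was compared next, first within macrophages. Hk3 was the 1 member that rose after anti-PD-L1, and 0 of the 38 fell. Over all genes tested 1.73% rose and 2.92% fell. These shares depended on single libraries: over 20 fits that left out 1 library they ran from 0.0705% (without treated macrophage library 4) and 0.0129% (without control macrophage library 1 or 5) to 5.34% and 7.03% (both without control macrophage library 4). Among the glycolytic genes 17 of 22 had a positive log2 fold change, with a median of 0.21. The hypoxia genes had a median of -0.08 and all genes tested one of -0.01. At an unadjusted p below 0.05 edgeR's test listed 6 glycolytic and 3 hypoxia genes. DESeq2 called 5 members higher and 1 lower, the latter Slc16a1, and limma-voom called 0.

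Hk3 (Entrez 212032, chromosome 13, 55005985 to 55021475) encodes the myeloid hexokinase that supplied most of the hexokinase mRNA. In macrophages, Hk3 was at 245, 347, 434, 333 and 261 CPM in the control libraries and at 534, 579.5, 581, 813 and 469 CPM in the treated libraries. In monocytes, Hk3 was at 559.6, 454, 358, 269 and 608 CPM in the control libraries and at 898, 1158, 720.5, 616 and 662 CPM in the treated libraries. All treated libraries exceeded all control libraries within each population, with the highest control and the lowest treated library at 434 and 469 CPM in macrophages and at 608 and 616 CPM in monocytes. Hk3 rose 1.84-fold in macrophages (log2 fold change 0.88, SE 0.22, adjusted p = 0.0415) and 1.803-fold in monocytes (log2 fold change 0.85, SE 0.22, adjusted p = 0.0122). In macrophages the call was lost in 6 of 20 fits that left out 1 library, namely control libraries 1 and 5, treated libraries 1, 3 and 4, or control monocyte library 1, with a highest adjusted p of 0.109.

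In macrophages, 3 more members had treated libraries that lay entirely above the control libraries without being called. With Hk3 these are 4 of 38, where 4.11% of all genes tested were separated in that direction, and 0 members lay entirely below, as did 2.83% of all genes. Hif1a had a log2 fold change of 0.45 (adjusted p = 0.0864), Aldoc one of 0.58 (0.0558) and Pfkfb4 one of 0.32 (0.0765). Slc16a1 had -0.42 and an adjusted p of 0.0503. Ldha, Gapdh, Pkm and Eno1 had values of 0.12, -0.05, 0.23 and 0.03, and none was called.

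**Figure D4:**
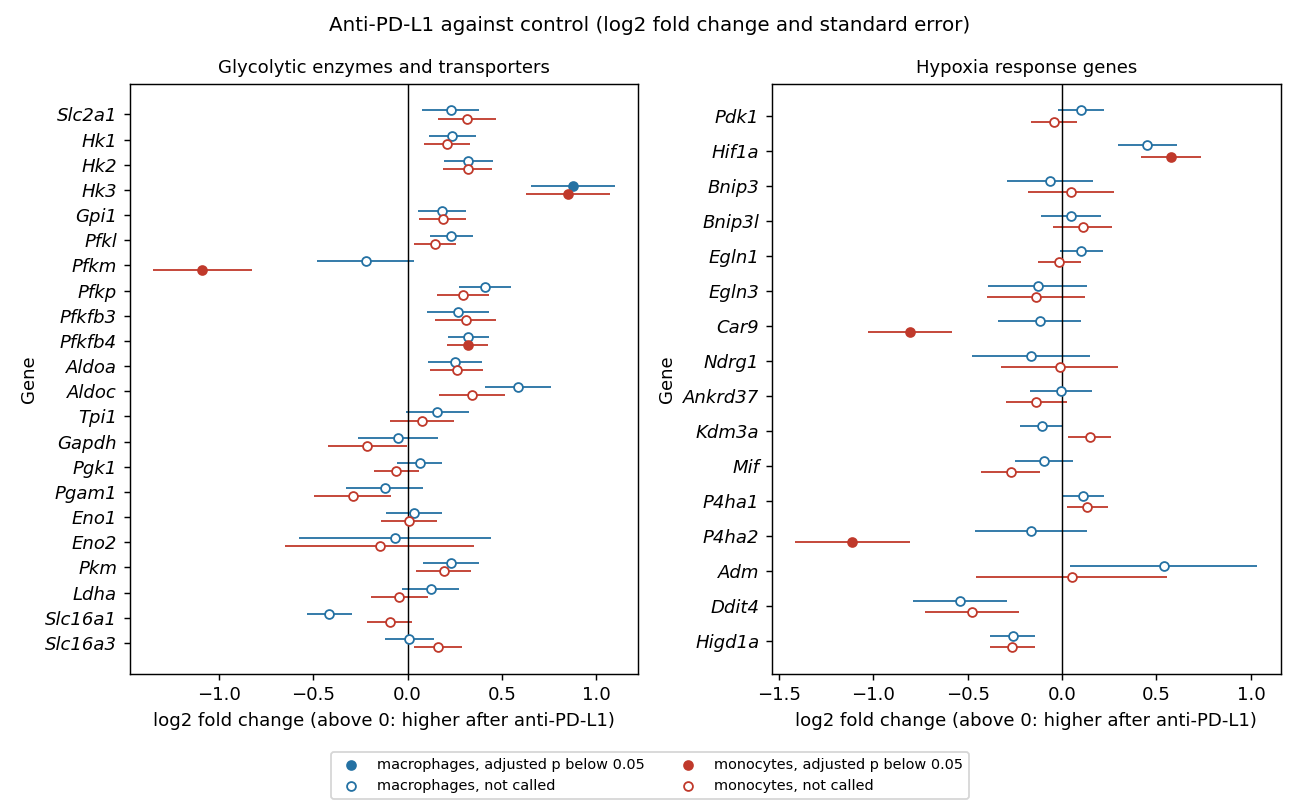
Log2 fold change of anti-PD-L1 over control with its standard error for the 22 glycolytic genes (left) and the 16 hypoxia genes (right), in macrophages (blue) and monocytes (red), filled where the adjusted p is below 0.05. Hk3 is filled in both populations, Pfkfb4, Hif1a, Pfkm, Car9 and P4ha2 in monocytes alone, and most other points lie within 0.5 of 0.

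In monocytes, Hk3, Pfkfb4 and Hif1a rose after anti-PD-L1, and Pfkm, Car9 and P4ha2 fell. That is 3 of 38 in each direction, where 9.92% of all genes tested rose and 15.4% fell (4.47% and 7.68% without control monocyte library 3, and 13.3% and 21.0% without control monocyte library 5). The treated libraries lay entirely above the control libraries for 1 member, Hk3, and for 5.09% of all genes, and entirely below for 0 members and 2.13% of all genes. The medians were 0.17 over the glycolytic genes, -0.03 over the hypoxia genes and 0.02 over all genes tested. Hif1a rose 1.49-fold (log2 fold change 0.58, SE 0.16, adjusted p = 0.0149), from 494 ± 115 to 738 ± 133 CPM (SD, n = 5), and control monocyte libraries 2 and 5 reached into the treated range. Without treated monocyte library 2 its adjusted p was 0.0527. Pfkfb4 (Entrez 270198, chromosome 9, 108988272 to 109032236) was, in monocytes, at 94.7, 119, 90.04, 109 and 134 CPM in the control libraries and at 147, 137, 113, 161 and 125 CPM in the treated libraries. In macrophages, Pfkfb4 was at 76.01, 89.2, 77.9, 92.98 and 80.2 CPM in the control libraries and at 108, 102, 103, 114 and 94.3 CPM in the treated libraries. Control monocyte libraries 2 and 5 lay within the treated range. The Pfkfb4 increase in monocytes was small (log2 fold change 0.32, SE 0.11, adjusted p = 0.0387), was lost under limma-voom (adjusted p = 0.0505) and was called in 6 of the 20 fits without 1 library, those without control macrophage library 1 or 4, control monocyte library 2 or 5, or treated monocyte library 3 or 5.

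Pfkm (Entrez 18642, chromosome 15, 98092589 to 98132447) had control monocyte libraries that spread widely (coefficient of variation 49.9%). In macrophages, Pfkm was at 29.9, 21.5, 26.1, 16.8 and 30.003 CPM in the control libraries and at 20.2, 20.4, 22.4, 21.9 and 21.7 CPM in the treated libraries. In monocytes, Pfkm was at 19.3, 12.6, 26.8, 30.9 and 7.52 CPM in the control libraries and at 9.22, 7.603, 9.71, 8.65 and 10.5 CPM in the treated libraries. Control monocyte library 5 was at the treated level, library 2 just above it, and libraries 1, 3 and 4 far above it, whereas treated monocytes were tightly grouped. Pfkm fell in monocytes (log2 fold change -1.09, SE 0.26, adjusted p = 0.008403), a call kept in all 20 fits without 1 library. Car9, given above, fell in monocytes (log2 fold change -0.80, SE 0.22, adjusted p = 0.0154) and showed the same split, with control libraries 2 and 5 inside the treated range. P4ha2 (Entrez 18452, chromosome 11, 54100924 to 54131668) did likewise. In macrophages, P4ha2 was at 20.5, 12.6, 22.6, 19.9 and 23.4 CPM in the control libraries and at 10.9, 19.9, 14.5, 16.1 and 26.9 CPM in the treated libraries. In monocytes, P4ha2 was at 14.5, 9.68, 21.3, 16.3 and 4.88 CPM in the control libraries and at 5.405, 6.98, 7.43, 4.44 and 6.67 CPM in the treated libraries. Control monocyte library 5 was again inside the treated range and library 2 just above it. P4ha2 fell in monocytes (log2 fold change -1.11, SE 0.30, adjusted p = 0.0146), but not under limma-voom, without the block (adjusted p = 0.0572) or with it (0.0604). Without control monocyte library 3 neither Car9 nor P4ha2 was called (adjusted p = 0.05099 and 0.05799).

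Fibroblast and cell cycle genes moved with these monocyte results. After anti-PD-L1, 14 of 20 fibroblast markers were lower in monocytes (median log2 fold change -2.54) and 12 of 20 in macrophages (median -2.95), and 19 of 21 cell cycle genes were lower in monocytes (median -1.54). Col3a1 was at 184 to 1768 CPM in control and 26.3 to 258 CPM in treated monocytes, and Col1a1 at 3.48 to 26.8 and 1.78 to 12.6 CPM. Control monocyte libraries 5 and 2, low in Pfkm, Car9 and P4ha2, also had the lowest fibroblast level of their group (mean log2 CPM of 20 markers 3.02 and 4.35, against 5.22 to 6.01 in the other 3). They had the lowest cell cycle level too (2.79 and 4.01, against 4.77 to 5.26). With the fibroblast level as a covariate, or without the 6 control libraries highest in it, all 7 treatment calls of members given above were lost (adjusted p = 0.371 to 0.8098 and 0.181 to 0.9802). The 6 were control macrophage libraries 1, 3 and 5 and control monocyte libraries 1, 3 and 4. Only control macrophage libraries 2 and 4 and control monocyte libraries 2 and 5 remained. The covariate itself differed between the treatment groups. Both alternatives thus had less power to call a treatment difference, and a lost call does not show that a change was absent. Over all genes tested the covariate left 2 calls in macrophages and 7 in monocytes. With the covariate Hk3 had log2 fold changes of 0.55 in macrophages and 0.53 in monocytes, Hif1a one of 0.38 and Pfkm one of -0.41 in monocytes. Without the 6 libraries Hk3 had log2 fold changes of 0.81 in macrophages and 0.59 in monocytes, Hif1a one of 0.24, Pfkfb4 one of 0.09, Pfkm one of -0.16 and P4ha2 one of -0.26 in monocytes. Both alternatives were added after the data had been seen, and the part of fibroblast RNA or of the cell cycle in the treatment differences was not tested beyond them.

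**Figure D5:**
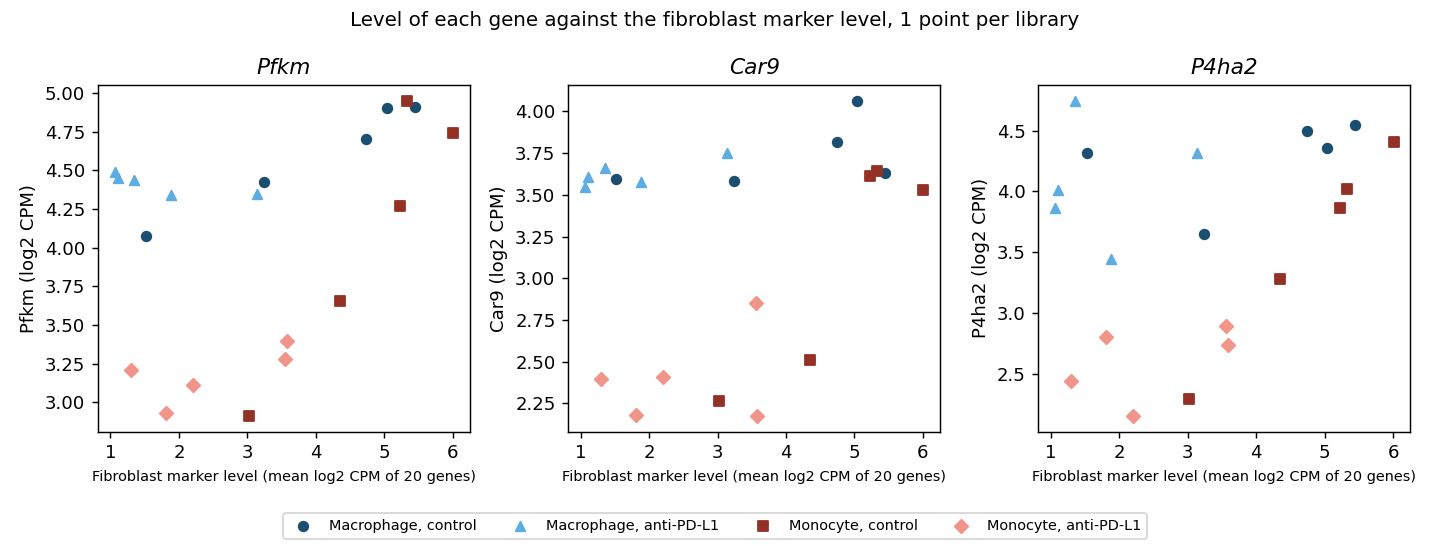
Log2 CPM of Pfkm, Car9 and P4ha2 against the fibroblast marker level (mean log2 CPM of 20 genes), 1 point for each of the 20 libraries. Control monocyte libraries with a level above 5 have the higher values of their group, control libraries 2 and 5 lie lower, and treated macrophages keep a high Car9 at a low fibroblast level.

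Whether anti-PD-L1 acted differently in the populations was tested by the difference of the treatment effects. None of the 38 members was called by edgeR, as was 0% of all genes tested. The lowest adjusted p of a member was 0.743, and 3 members, Pfkm, Car9 and P4ha2, had an unadjusted p below 0.05, as did 980 of all genes. Their differences of log2 fold change, macrophages minus monocytes, were 0.87 (SE 0.37), 0.68 (SE 0.31) and 0.94 (SE 0.42). DESeq2 called 7 genes and limma-voom 0, with 0 members in either. The calls in monocytes alone therefore do not show that these genes responded differently from those in macrophages.

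Related pathways were counted with lists that hold none of the 38 members and were also chosen with earlier results of these data known. Of 28 other hypoxia-responsive genes tested, 10 were higher in control monocytes and 2 in control macrophages, then 13 and 2 in treated tumours. The 10 and 13 are 35.7% and 46.4% of the list, beside 20% and 25.7% of all genes. Those with the smallest p were Bhlhe40 (-1.54) and Nfil3 (-1.61), both transcriptional repressors, and Fosl2 (-1.63), an AP-1 subunit, as log2 fold changes of macrophages over monocytes. Of 13 regulators of the HIF pathway, 5 were higher in control monocytes and 1 in control macrophages, then 6 and 0 in treated tumours. Over all genes these shares were 20% and 24%, then 25.7% and 28.2%. The regulators higher in control monocytes included Arnt, the HIF partner (-0.46), and Epas1, which encodes HIF-2alpha (-1.36). Siah2, a ubiquitin ligase acting on the hydroxylases (-0.73), was another. The 13 other glycolysis isoforms tested split 4 to macrophages and 3 to monocytes in control tumours, then 4 and 5 in treated tumours. The shares of all genes are those just given. In control tumours Slc2a8, another glucose transporter, was higher in macrophages (1.10) and Pgam2, the muscle mutase, in monocytes (-1.67).

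Of 27 genes of pyruvate dehydrogenase and the TCA cycle, 8 were higher in control macrophages and 4 in monocytes (29.6% and 14.8%, beside 24% and 20% of all genes), then 10 and 3 in treated tumours (37.04% and 11.1%, beside 28.2% and 25.7%), with a median of 0.15 in control tumours. Fh1, fumarase, stood at 0.84 and Idh3a, a subunit of isocitrate dehydrogenase, at 0.52. Under treatment in macrophages, 2 genes of these lists were called: Vldlr, a lipoprotein receptor, fell (-3.16) and Pygl, glycogen phosphorylase, rose (0.42). In monocytes 3 of 16 genes of glycogen and gluconeogenesis rose and 3 fell, beside 9.92% and 15.4% of all genes. There 3 of 10 pentose phosphate genes rose and 1 fell, among them G6pdx, which catalyses the first step (0.47), and Prps1, which makes phosphoribosyl pyrophosphate (-0.77). Cited2, an inhibitor of HIF transactivation (0.53), and Plin2, a lipid droplet protein (0.68), also rose in monocytes, while Stc2 (-2.70), a secreted stanniocalcin, and Pcx (-1.08), pyruvate carboxylase, fell.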

How the data were processed

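Per the labels' protocols a stranded total RNA kit was used, while the molecule is labelled as polyA RNA. Reads were aligned with GSNAP to GRCm38, per the submitters' processing notes, and the sources used here name no annotation, counting tool or strand setting. The deposited files give, per the file headers, a count (uniquely aligned reads) and an nRPKM for each of 36528 gene models. The deposited RPKM values were found to be counts divided by length and a library factor and were used only to compare levels between genes. Symbols and coordinates came from RefSeq (GRCm38.p6), which matched 31049 models (85.0%).

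Counts were analysed unchanged in R 4.3.3 with edgeR 4.0.16: filterByExpr (15390 genes kept), TMM scaling, 1 mean per group over all 20 libraries, the quasi-likelihood test and Benjamini-Hochberg adjustment. DESeq2 1.42.0, its size factors, limma-voom (limma 3.58.1), no filter, only the 10 libraries compared, a block for neighbouring sample numbers and leaving out each library were alternatives. Simulated counts with known fold changes were used to test the fits. The simulated libraries were drawn independently, so that check does not cover the correlation of neighbouring libraries described below. Replicates carry no number in the labels and were numbered by accession as a name only. In 40 pairs of replicates the chi-square per degree of freedom was at least 22.06, so no library is a copy of another.

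The labels do not pair the libraries. Macrophage and monocyte libraries with neighbouring sample numbers correlated in their deviations from the group means (0.22 to 0.72 in 10 pairs), and 9 of 10 libraries of each population correlated best with their neighbour, so these were taken as pairs in the block.

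The 38 members, the pathway lists and the cell type lists were chosen with earlier results of these data known. All members are named, and values in every library are given for the called members with the smallest p (up to 5 glycolytic and 5 hypoxia genes in a comparison) and for Hif1a, Gapdh and Ldha. Of other pathways at most 3 called genes with the smallest p are named. Motifs were counted in RefSeq promoters, and near-identical copies were found with blastn 2.17.0 among GENCODE M21 transcripts.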

Additional observations from a re-analysis of the deposited data

Results flagged for a closer look

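In each group of 5 libraries a value was listed here when its gap to the nearest other library exceeded 0.71 of the group's range. Gap and range were taken on log2 CPM, while the values below are CPM. Of 152 groups tested (38 genes in 4 groups) 12 met this, or 7.89%, where chance gives about 1 in 20.

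The treated macrophage library 1 was apart at the low end for 5 glycolytic genes. Pfkp was at 208 CPM against 262 to 283 in the other 4 libraries, Aldoc at 65.0 against 82.8 to 86.2, Eno1 at 191 against 268 to 307, Pkm at 921 against 1220.2 to 1365 and Slc16a3 at 243 against 349 to 390.1. This library had the lowest value of its group for 17 of the 22 glycolytic and 12 of the 16 hypoxia genes. Its counts, 36514133, were the highest of the 20 libraries.

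In control monocytes, Hk1 was high in library 5, at 254 CPM against 173 to 180.1, and Higd1a was high in library 4, at 19.3 against 12.3 to 12.98. Adm was low in library 2, at 0.815 against 1.97 to 2.74. In treated monocytes, Aldoc was low in library 3, at 26.6 CPM against 49.9 to 53.5, and Slc16a1 was low in library 4, at 37.6 against 49.4 to 51.2. In macrophages, P4ha2 was low in control library 2, at 12.6 CPM against 19.9 to 23.4, and Eno2 was high in treated library 5, at 0.644 against 0.101 to 0.140.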

How the results depend on the processing

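Members higher in monocytes numbered 21 in control tumours (20 to 22 without 1 library, 23 with the replicate block for neighbouring sample numbers, 19 without the 6 control libraries or with only 10 libraries) and 20 in treated tumours (16 to 22, and 25 with the block). Those higher in macrophages in treated tumours numbered 6, and 5 or 6 under every alternative run. Those higher in macrophages in control tumours numbered 1, with 0 to 3 without 1 library, 2 with limma-voom, 5 with the replicate block and 4 both with the fibroblast covariate and without the 6 control libraries. Members that rose in macrophages numbered 1, with 0 to 5 without 1 library, 2 with DESeq2 size factors, 5 with DESeq2, 3 with only the 10 libraries compared and 0 with limma-voom, the covariate or without the 6 libraries. Members that fell there numbered 0, with 0 to 1 without 1 library and 1 with DESeq2 or only 10 libraries. In monocytes 3 rose (1 to 8 without 1 library, 1 with only 10 libraries, 2 with limma-voom) and 3 fell (1 to 3, and 2 with limma-voom), and 0 in each direction with the covariate or without the 6 libraries, where the Car9 change in monocytes turned to 0.014 (log2). The block left the treatment counts at 1 and 0 in macrophages and at 3 and 2 in monocytes, and beyond the genes named above it changed no call of a member. The cause of these changes was not tested.

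Over all genes tested, 266 rose and 449 fell in macrophages, against 747 and 1131 with DESeq2, 148 and 43 with limma-voom, 195 and 48 with the block, 172 and 306 without a filter, 399 and 794 with only 10 libraries, 1 and 1 with the covariate and 64 and 6 without the 6 libraries. Without 1 library they ran from 11 to 833 and from 2 to 1095, with 13 and 16 of 20 fits more than 1.5 times away. In monocytes 1526 rose and 2374 fell, against 1408 and 1377 with limma-voom, 678 and 1341 with only 10 libraries, 5 and 2 with the covariate, 67 and 16 without the 6 libraries, and 693 to 2079 and 1190 to 3280 without 1 library. The test of the difference called 0, 8 with the block and 41 without control monocyte library 5. Scaling by total counts shifted the median of all genes by -0.14 in treated against control macrophages and -0.18 in monocytes. On that scale 15 members were higher in treated macrophages (23 with TMM) and 9 in treated monocytes (21 with TMM). A limit of 3 counts covers counting error only and equalled at most 0.0994 CPM, so Eno2 rests on few reads.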

Other observations

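Hypoxia and glycolytic genes varied between libraries of one group in a way that most neighbouring macrophage and monocyte libraries shared. Genes at large did so to a similar degree, as given below. This was noticed after the values had been seen and is given as a description. The counts of highest and lowest libraries that follow were not made over all genes. Control macrophage library 1 was the highest of its group for 11 of the 16 hypoxia genes, and its neighbour by sample number, control monocyte library 4, for 9 of 16. Ndrg1 was at 176 CPM in the first, where the other 4 ranged from 53.7 to 108, and at 333 CPM in the second, where they ranged from 139 to 212. Egln3 was at 81.1 and 227 CPM and Bnip3l at 57.7 and 75.2 CPM in this pair, each the highest of its group. At the other end, treated macrophage library 1 was the lowest of its group for 12 of the 16 genes and its neighbour, treated monocyte library 4, for 11. Egln3 was at 26.9 and 94.2 CPM and Ndrg1 at 50.1 and 133 CPM in that pair, the lowest of their groups.

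Across the 10 neighbouring pairs, both libraries lay on the same side of their group means by the median hypoxia gene in 7 pairs and by the median glycolytic gene in 9 pairs. By the median of all 38 members it was 6 pairs. Among the 9 glycolytic pairs, control monocyte library 1 had a median log2 deviation of only 0.00017. Within a pair, between 5 and 14 of the 16 hypoxia genes lay on the same side. The pair with 5 was treated macrophage library 4 and treated monocyte library 2. For single members the number of such pairs ran from 3 to 9 of 10 with a median of 8, beside a median of 7 over all genes tested. It was 9 or more for 15.8% of members and 12.9% of all genes tested, so the sharing was not particular to the members. Pairs share no library, but the labels do not say what a pair shares.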
